A study of Mus musculus with 8 samples.

Results

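The cells labelled ILCP, the usual name for precursors of innate lymphoid cells, were set against 2 neighbouring populations of mouse fetal liver at once. Genes were sought whose level in every ILCP library lay above, or below, that in all 5 other libraries. Such a gene was counted only if it also passed the test of 1 contrast, the ILCP mean minus the average of the CLP mean and the ILC1/3P mean on the log2 scale, with equal weight for each group. Of 13436 genes tested, 474 met both conditions and are called members here. Bulk RNA was sequenced from ILCP (3 libraries), CLP (3 libraries) and ILC1/3P (2 libraries), all sorted from wild-type B6 mice without treatment. Each gate was lineage-negative, CD45+, CD127+ and CD25-. The CLP gate (common lymphoid progenitors) was Flt3+. The ILCP and ILC1/3P gates were both Flt3- and α4β7+, and ILCP were PD-1+ CD94- where ILC1/3P were PD-1- CD94+. Sorting by surface proteins limits each group to what the gate holds. The labels carry an age of 6-8 weeks, which the fetal tissue leaves unexplained.

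Innate lymphoid cells are lymphocytes that respond to cytokines without rearranged antigen receptors. They arise from lymphoid progenitors that give up B and T cell fates under factors such as TCF-1, GATA3, TOX, NFIL3 and ID2. PLZF, encoded by Zbtb16, and the receptor PD-1 mark precursors that give rise to several kinds of innate lymphoid cell, and Notch signals, retinoids and interferons are among the cues that such cells can read in fetal tissue.

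Total counts ran from 4991939 to 8082476 per library. Whether the replicates are separate mice is not stated in the labels, and the p-values then reflect the scatter of these 8 libraries alone, which could be technical. The second principal component, with 21.2% of the variance, set ILCP apart, at -90.0 to -84.8 against 21.9 to 92.7 in the other libraries. TMM factors, which scale libraries to each other, were 1.05 to 1.17 in ILCP, 1.09 to 1.23 in CLP and 0.671 to 0.753 in ILC1/3P. Mitochondrial genes took 2.71% to 4.13% of ILCP counts and up to 5.39% elsewhere. Levels are given as CPM, TMM-scaled counts normalised to library size, in the order of the replicate numbers. Differences are log2 values ± SE, and adjusted p-values come from edgeR's two-sided quasi-likelihood test with Benjamini-Hochberg adjustment over all tested genes, with a threshold of 0.05.

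More genes stood above the other populations than below. Every ILCP library was above all others for 777 genes (5.78% of those tested) and below for 399 (2.97%). The contrast called 686 genes higher (5.11%) and 367 lower (2.73%), a split of 1165 and 201 when libraries were scaled by their total counts only. Both conditions held for 333 genes above (2.48%) and 141 below (1.05%), and 300 and 128 of them were protein coding. These counts describe how the 8 libraries lie, since the separation and the test rest on the same values. By the same separation rule, all CLP libraries were above the others for 1330 genes and all ILC1/3P libraries for 2077, where 2 libraries make separation easier to reach. In bulk RNA, fewer cells of a type and less RNA per cell cannot be told apart. The median difference of all tested genes was 0.17, and 0.47 with library totals only, and each difference is to be read relative to it. The use of strand is not given, so members whose exons overlap another gene are uncertain, 123 of those above and 45 of those below. Among the genes named here, members or not, those with such overlap include Rora, Gata3, Tox, Themis, Camk4, Sh2d1a, Lat, Trdc, Skap1, Cd27, Il17rb, Itga4, Notch1, Adh1, Cyp11a1, Bcas1, Glis1, Bcl2, Igf2, H19, Aldoa, Adpgk, Dusp1, Gp1bb, Ahsg, Maf, Ikzf2, Klrb1c, Rtp4, Ifi203, Gbp7, Mndal, Igtp, Man1a, Angpt1, Runx2, Runx2os1, Kctd12, Parp14, Hopx and Stab2.

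**Figure D1:**
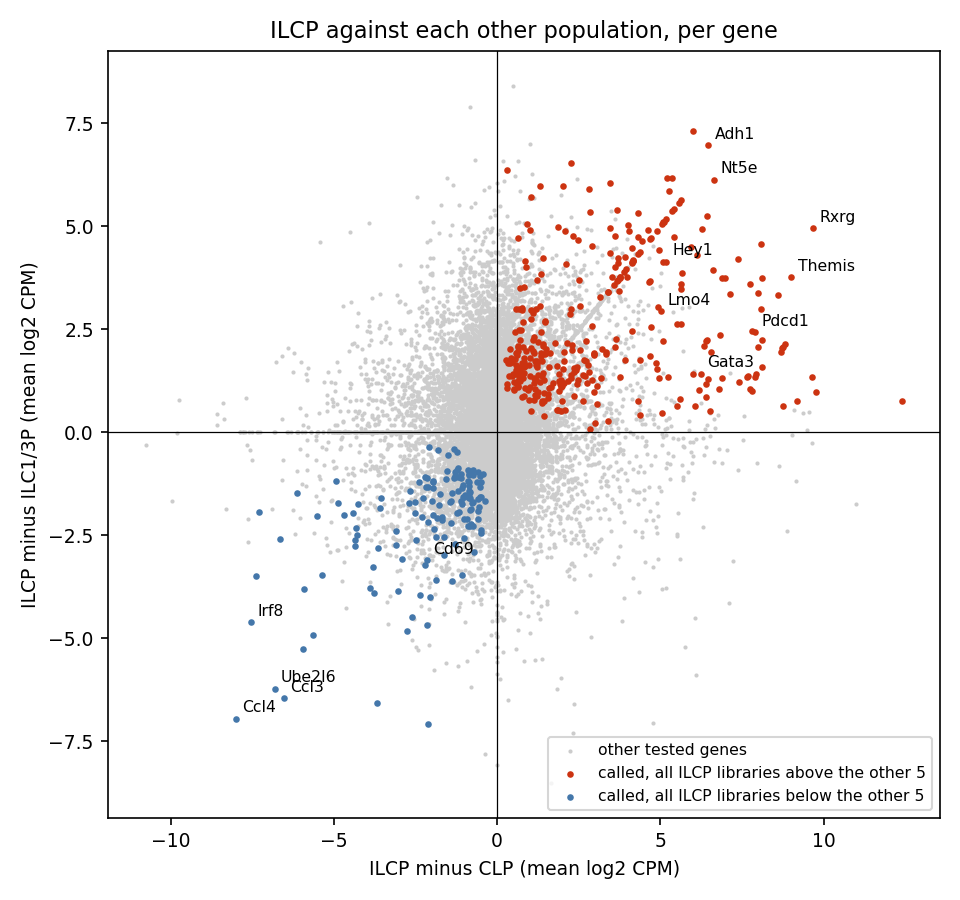
Difference in mean log2 CPM of ILCP from CLP (horizontal axis) and from ILC1/3P (vertical axis) for each tested gene, 1 point per gene. Red points are the 333 genes called and above in every ILCP library and blue points the 141 called and below; both axes use the same ILCP libraries, so the direction of the cloud carries no result.

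Most of these genes stood clear of one population by far and of the other by little. The difference of ILCP from the nearer group mean had a median of 2.57-fold among genes above (1.06 to 88.4) and 2.31-fold among genes below. The nearer group was CLP for 144 genes above and ILC1/3P for 189. No CLP library had a count for 70 genes above, no ILC1/3P library for 53, and neither for 28. Among the members, 95 above and 66 below had an adjusted p under 0.05 against each population separately. A stricter rule took the larger of the 2 unadjusted p-values of each gene and adjusted it again over all genes. It left 3 genes above, Themis, Pgam2 and Lmo4, and 9 below, which include Ccl3, Ube2l6, Lyz2, Rtp4, Cd69 and Ifi203. At the edge of the threshold, Pepd (adjusted p = 0.0498) was inside and Rbmx (0.0503) outside among separated genes above. Below, Man1a (0.04997) was inside and Gm17275 (0.0528) outside.

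Some joint calls came from 1 population only. Of the genes called higher, 353 were not separated. On average, 211 of those were above both other populations, 78 above ILC1/3P only, and 64 above CLP but not above ILC1/3P. Id2, a repressor of E-protein factors that all innate lymphoid cells use, is among the 64. Its level was 131, 261 and 233 CPM in CLP, 4155, 4977 and 4480 CPM in ILCP, and 9977 and 14110 CPM in ILC1/3P. The contrast called it higher (1.52 ± 0.24, adjusted p = 0.00379), while against ILC1/3P alone it was lower (-1.41, adjusted p = 0.00865). Cxcr6 and Ccr8 were called higher in the same way, at -1.81 and -0.30 against ILC1/3P. Arg1 and Il22 were also called higher without separation, but lay above ILC1/3P on average (0.47 and 0.40). Id2 was chosen after its values were seen, as were Maf, Tox2 and Ikzf2 and the list members named below beyond the 4 with the smallest p in a list.

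Lmo4, Rxrg and Pdcd1 mark the population. Lmo4 encodes a LIM-only adaptor that links transcription factors without binding DNA itself (ENSMUSG00000028266, chromosome 3, 144188530 to 144205220 on mm10). It was at 31.6, 17.3 and 19.7 CPM in CLP, 744, 652 and 801 CPM in ILCP, and 70.4 and 129 CPM in ILC1/3P. The lowest ILCP library was far above the highest ILC1/3P library, and the contrast was 3.94 ± 0.27 (adjusted p = 1.774e-05). Rxrg encodes the retinoid X receptor gamma, a partner of other nuclear receptors (ENSMUSG00000015843, chromosome 1, 167598384 to 167639623). Its level was 0, 2.94 and 0 CPM in CLP, 691, 473 and 511 CPM in ILCP, and 10.2 and 30.0 CPM in ILC1/3P. The groups did not overlap, and the contrast was 7.09 ± 0.73 (adjusted p = 0.000259). By length, in FPKM as deposited, the ILCP means of Lmo4 (122 ± 16.8, SD, n = 3) and Rxrg (152.5 ± 39.7) differed by less than the SD of Rxrg.

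Pdcd1 encodes PD-1, the protein of the ILCP gate, so its rank checks the sort and is no finding (ENSMUSG00000026285, chromosome 1, 94038305 to 94052553). It had no counts in any CLP library. It was at 107, 44.6 and 81.2 CPM in ILCP and at 10.2 and 17.5 CPM in ILC1/3P. That is at least 542-fold above CLP, against a floor of 3 counts pooled over the CLP libraries, and 2.49 ± 0.57 against ILC1/3P (adjusted p = 0.0165). Flt3, the marker of the CLP gate, had 1.28, 0 and 0 CPM in ILCP against 401 to 570 CPM in CLP. Klrd1, which encodes CD94, was at 19.1 to 71.5 CPM in ILCP and 1184 and 1629 CPM in ILC1/3P. Each of these 3 genes was highest in the population gated for its product. Il2ra, the transcript of the gated-out CD25, stood in ILCP at 6.26, 9.26 and 7.18 CPM, and there were none in CLP and 0.823 and 3.78 CPM in ILC1/3P. Its call (adjusted p = 0.0396) was lost without any 1 of the 8 libraries (highest adjusted p = 0.107). Itga4, the α4 chain of the gate, was also above, at 419, 489.7 and 417 CPM in ILCP, 302 to 411.5 CPM in CLP, and 169 and 100.2 CPM in ILC1/3P. Its call (adjusted p = 0.0204) was lost without any ILCP library or ILC1/3P replicate 2 (highest adjusted p = 0.0697).

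Of 24 regulators of innate lymphoid precursors tested, 12 were called higher and 2 lower, with a median difference of 1.74 against 0.17 over all genes. Separated and called were 8 above (Rora, Gata3, Lmo4, Bcl11b, Rxrg, Tox, Tcf7 and Zbtb16) and 2 below (Id3 and Runx2). The list was written with earlier results of these data known and holds the markers Lmo4 and Rxrg. Its counts are therefore a description only. Rora, a nuclear receptor needed for ILC2, was at 1.36, 1.104 and 0.889 CPM in CLP, 591, 671 and 494 CPM in ILCP, and 98.5 and 227 CPM in ILC1/3P. The contrast was 5.42 ± 0.31 (adjusted p = 4.745e-06), and Rora was higher than in ILC1/3P by 1.85 (adjusted p = 0.00497). Gata3, a zinc-finger factor of T cells and ILC2, was at 2.02 to 2.83 CPM in CLP, 240.2, 176 and 228 CPM in ILCP, and 69.1 and 90.5 CPM in ILC1/3P (3.90 ± 0.25, adjusted p = 8.881e-06).

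Tcf7, which encodes TCF-1, spanned 677 to 963 CPM in ILCP. CLP held 5.33, 29.4 and 2.97 CPM, and ILC1/3P 157 and 255.5 CPM (contrast 3.96 ± 0.56, adjusted p = 0.0019). Against ILC1/3P alone Tcf7 did not pass (1.93, adjusted p = 0.0899). Tox, a DNA-binding factor of early innate lymphoid development, was at 428, 242 and 293 CPM in ILCP, 17.1 to 36.4 CPM in CLP, and 106 and 52.5 CPM in ILC1/3P (2.81 ± 0.32, adjusted p = 0.000452). Bcl11b, a T cell and ILC2 factor, had no counts in CLP, 87.3, 90.5 and 71.2 CPM in ILCP, and 14.2 and 7.09 CPM in ILC1/3P. It was at least 581.5-fold above CLP and 2.96 above ILC1/3P (adjusted p = 0.00512).

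Zbtb16, which encodes PLZF, had few counts. It had none in CLP, 28.9, 9.40 and 11.7 CPM in ILCP, and 4.77 and 0 CPM in ILC1/3P. Its call (adjusted p = 0.0278) was lost without CLP replicate 3 or without any ILCP library (highest adjusted p = 0.1285). Nfil3 was separated but not called. It held 108, 49.9 and 42.5 CPM in ILCP, at most 41.5 CPM in CLP and at most 36.0 CPM in ILC1/3P (1.13 ± 0.48, adjusted p = 0.177). Maf, Tox2 and Ikzf2 were called higher and overlapped ILC1/3P. Id3, a relative of Id2, and Runx2 were lower. Id3 was at 66.2, 54.45 and 36.9 CPM in CLP, 1.42, 0.276 and 1.13 CPM in ILCP, and 2.63 and 6.855 CPM in ILC1/3P (-4.04 ± 0.66, adjusted p = 0.00417). Its difference to ILC1/3P rests on few counts, 10, 2 and 8 in ILCP and 16 and 29 in ILC1/3P. Neither Id3 (adjusted p = 0.515) nor Runx2 (0.35) passed the stricter rule.

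**Figure D2:**
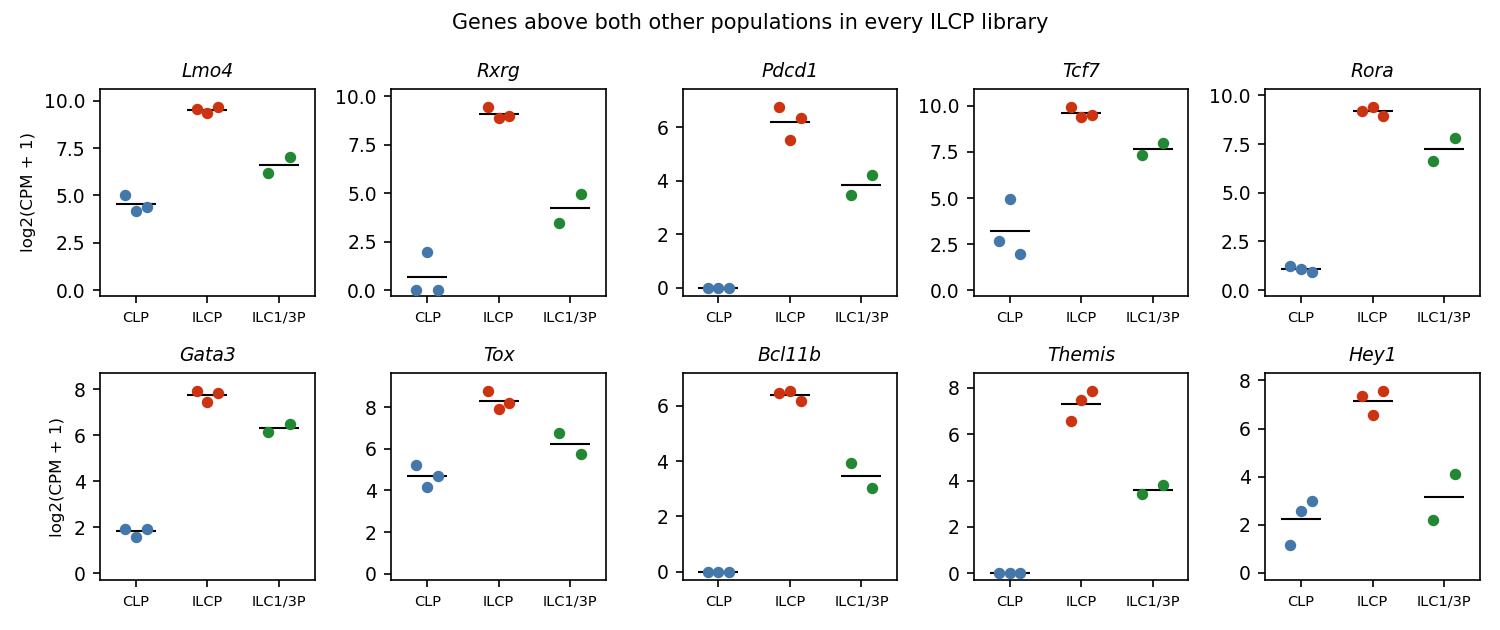
Level of 10 genes in each library as log2(CPM + 1), 1 point per library and a line at each group mean. For each gene the 3 ILCP points lie above the 3 CLP and the 2 ILC1/3P points; Zbtb16 and Nfil3 are not drawn.

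T lineage genes gave the most members above of any list by number. Of 27 tested, 15 were called higher, none lower, and 10 were members above (Trbc1, Tcrg-C4, Txk, Themis, Camk4, Sh2d1a, Lat, Trdc, Tcrg-C1 and Skap1). The list summed to 10990 to 15850 CPM in ILCP, within reach of ILC1/3P (12570 and 19660 CPM). Against ILC1/3P alone Trbc1 (0.53, adjusted p = 0.168), Tcrg-C4 (0.73, 0.133) and Camk4 (0.87, 0.115) did not pass. Themis, Txk, Sh2d1a and Lat did. The median difference of the list was 3.18 in the contrast. Taken separately, the median was 6.475 against CLP and 0.53 against ILC1/3P. Themis, a signalling protein of developing T cells, was at 0 CPM in all CLP libraries, 94.4, 177 and 229.6 CPM in ILCP, and 9.705 and 13.0 CPM in ILC1/3P. Its difference to ILC1/3P was 3.88 (adjusted p = 0.0014), and it was at least 1172-fold above CLP. Txk, a Tec family kinase, was at 0 CPM in CLP, 300.2, 210 and 300 CPM in ILCP, and 127.5 and 145 CPM in ILC1/3P. Levels of other T cell genes in ILCP ran from none (Cd5 and Cd4) over 7.54 to 13.5 CPM for Trac and 63.3 to 96.3 CPM for Cd3d to 1251 to 2096 CPM for Cd3g and 1681 to 2229 CPM for Trbc2. In ILC1/3P, Cd3g was at 2245 and 3463 CPM and Trbc2 at 3304 and 4396 CPM. The calls of Tcrg-C1 and Skap1 were lost without either ILC1/3P library, and that of Skap1 also without ILCP replicate 3 (highest adjusted p = 0.0925). The Tcrg constant genes are near-identical copies, so their counts are uncertain.

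Among checkpoint and costimulatory receptors, 8 of 17 were called higher and 5 were members above (Pdcd1, Icos, Cd96, Cd27 and Cd28). Pdcd1 is in both counts through the gate and is no finding. The summed level of that list was nonetheless 1897 to 2328 CPM in ILCP against 3907 to 5381 CPM in ILC1/3P. Cd96, an adhesion receptor, was at 39.7 to 75.1 CPM in CLP, 253, 315 and 279 CPM in ILCP, and 119 and 75.9 CPM in ILC1/3P (1.93 ± 0.25, adjusted p = 0.001095). Without ILCP replicate 3 the call of Cd28 was lost (adjusted p = 0.0885). Of 25 ILC2 genes, 9 were called higher and 4 were members above (Icos, Il17rb, Alox5 and Il2ra). Il17rb, the receptor of the cytokine IL-25, was at 0 CPM in CLP, 126, 54.9 and 84.9 CPM in ILCP, and 8.06 and 37.1 CPM in ILC1/3P. Of 20 ILC3 and lymphoid tissue inducer genes, 10 were called higher and 4 were members above, Il23r, Ccr6 and Kit among them. Il23r, the receptor of the cytokine IL-23, was at 0 CPM in CLP, 44.2, 95.6 and 107.6 CPM in ILCP, and 10.03 and 32.6 CPM in ILC1/3P. Every ILCP library was above the others, and Il23r was called higher (adjusted p = 0.000501) and at least 579-fold above CLP. Against ILC1/3P alone Il23r did not pass (1.96, adjusted p = 0.0673). Neither did Il17rb (1.98, adjusted p = 0.0809) nor Icos (0.41, adjusted p = 0.406). Ccr6 was low, at 6.19 to 10.4 CPM in ILCP and 0 CPM elsewhere, and its call was lost without any 1 ILCP library (highest adjusted p = 0.0643). Kit lost its call without 7 of the 8 libraries (highest adjusted p = 0.151; the exception is ILC1/3P replicate 2).

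Among Notch receptors and targets, 11 genes were tested, of which 2 were called higher and 1 lower. Hey1, a target of Notch signals, was above. Its level was 1.25, 4.97 and 6.97 CPM in CLP, 162, 93.7 and 186 CPM in ILCP, and 3.62 and 16.1 CPM in ILC1/3P (4.50 ± 0.57, adjusted p = 0.00089). Notch1 itself was below, at 76.7, 121 and 94.6 CPM in CLP, 3.98, 4.28 and 4.505 CPM in ILCP, and 9.87 and 30.3 CPM in ILC1/3P (-3.37 ± 0.45, adjusted p = 0.00115). Hes1, another target, was called higher but was near CLP, at 864 to 1159 CPM in ILCP and 605 to 1089 CPM in CLP, against 125 and 111 CPM in ILC1/3P.

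**Figure D3:**
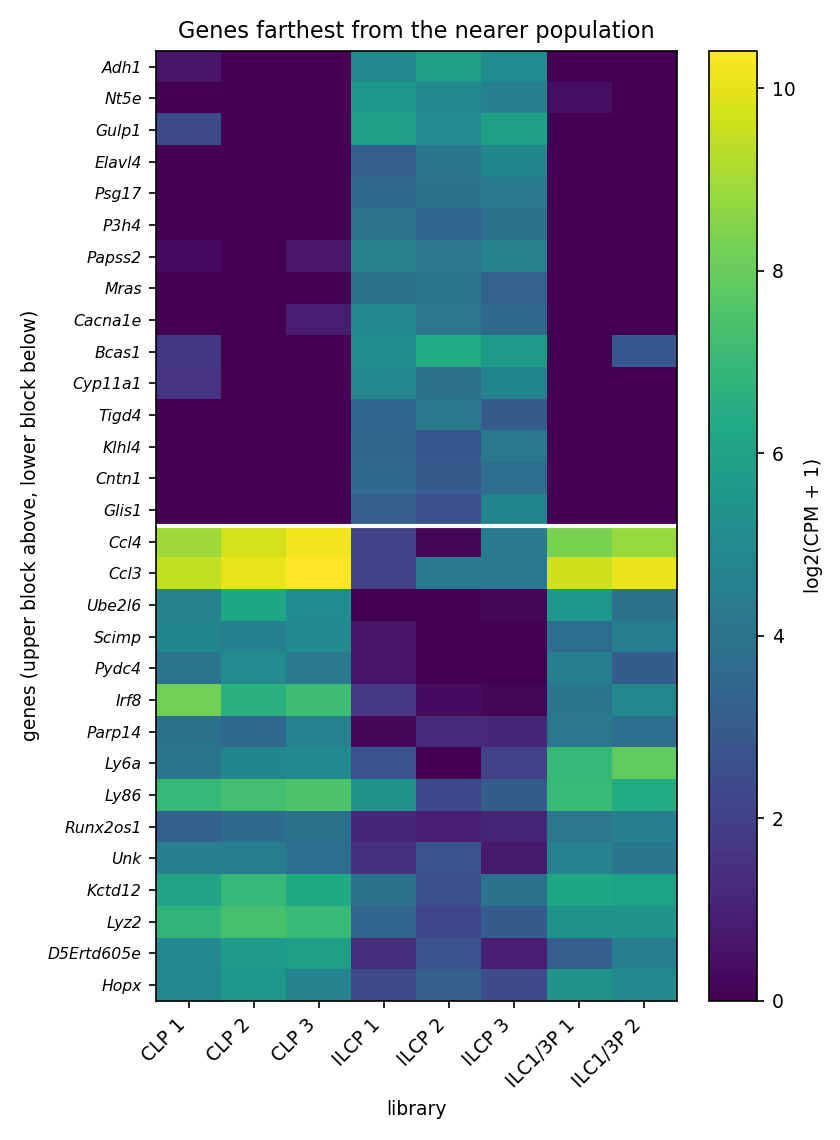
Level of the 15 genes above and 15 below that lie farthest from the nearer population, in log2(CPM + 1), for each library. In the upper block the 3 ILCP columns are brighter than the rest, which reach at most 6.15 CPM; in the lower block they are darker.

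The genes farthest from both other populations were mostly silent outside ILCP. The first by the smaller of the 2 differences was Adh1, an alcohol dehydrogenase that can oxidise retinol. It was at 0.567, 0 and 0 CPM in CLP, 28.9, 58.0 and 32.2 CPM in ILCP, and at 0 in both ILC1/3P libraries. That makes it at least 137-fold above ILC1/3P. Nt5e, which encodes the adenosine-making enzyme CD73, was at 43.9, 29.0 and 22.0 CPM in ILCP, 0 CPM in CLP and 0.329 and 0 CPM in ILC1/3P. Its ratio to ILC1/3P was 163 with a 95% counting interval of 44.9 to 1347. Papss2, which makes the sulfate donor of the cell, and Gulp1, an adaptor in the uptake of dying cells, had no counts in ILC1/3P. Elavl4 (an RNA-binding protein known from neurons), Psg17, P3h4, Mras, Tigd4, Klhl4, Cntn1 and Glis1 had no counts in either other population. Their ILCP levels ran from 4.84 CPM in 1 Glis1 library to 26.75 CPM in 1 Elavl4 library. Cacna1e, Cyp11a1 and Bcas1 complete the 15. Without ILCP replicate 3 the calls of Klhl4, Glis1, Cntn1, Cyp11a1 and Bcas1 were lost, and without ILCP replicate 1 those of Cacna1e, Cntn1, Cyp11a1 and Bcas1 (highest adjusted p = 0.0845). Bcas1 also lost its call without ILCP replicate 2.

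A few further members above, chosen after their values were seen, cover growth and metabolism. Bcl2, which blocks cell death, was at 17.8 to 23.9 CPM in CLP, 159, 126 and 141 CPM in ILCP, and 23.7 and 39.0 CPM in ILC1/3P (2.46 ± 0.26, adjusted p = 0.0003155). The fetal growth factor gene Igf2 was at 0 CPM in CLP, 63.4, 70.9 and 62.1 CPM in ILCP, and 1.48 and 16.1 CPM in ILC1/3P. H19, the non-coding gene imprinted with Igf2, was at 442, 486 and 169 CPM in ILCP, 28.3 to 38.7 CPM in CLP, and 129 and 60.8 CPM in ILC1/3P (2.71 ± 0.35, adjusted p = 0.001055). The glycolytic genes Ldha, Aldoa, Adpgk and Pgam2 were members too. Pgam2, the muscle form of phosphoglycerate mutase, was at 107, 98.0 and 58.0 CPM in ILCP, 0 CPM in CLP, and 5.92 and 6.15 CPM in ILC1/3P.

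The chemokine genes Ccl3 and Ccl4 led the members below. Another chemokine gene, Ccl5, was not low in ILCP, at 984, 908 and 774 CPM. It was at 0 to 7.54 CPM in CLP and at 671 and 1260 CPM in ILC1/3P. Ccl3 was at 698, 1045 and 1363 CPM in CLP, 2.99, 19.2 and 19.01 CPM in ILCP, and 811 and 1099 CPM in ILC1/3P (-6.17 ± 0.60, adjusted p = 0.000161). Ccl4, which encodes a chemokine of the same family, was at 484, 851 and 1167 CPM in CLP, 3.13, 0.138 and 18.4 CPM in ILCP, and 314.5 and 453 CPM in ILC1/3P (-6.29 ± 0.96, adjusted p = 0.00333). Both were lower in all 3 ILCP libraries by a wide gap. They belong to 29 NK and ILC1 genes, of which 3 were called higher and 7 lower, and 4 were members below (with Klrb1c and Irf8). Most of that list was high in ILC1/3P alone, and its summed level was 3622 to 4234 CPM in ILCP, 1906 to 3482 CPM in CLP and 19420 to 27640 CPM in ILC1/3P.

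Irf8, a factor of myeloid, dendritic and B cell development, was at 295, 98.05 and 143 CPM in CLP, 2.28, 0.276 and 0.141 CPM in ILCP, and 15.96 and 27.4 CPM in ILC1/3P (-6.09 ± 0.76, adjusted p = 0.0008475). Cd69, which holds lymphocytes in tissue, was at 1242, 1976 and 1953 CPM in CLP, 283, 503 and 386 CPM in ILCP, and 3442 and 3134 CPM in ILC1/3P (-2.61 ± 0.27, adjusted p = 0.000254). ILCP were lower than both by clear gaps. Lyz2 was lower as well, at 9.39, 3.59 and 7.18 CPM in ILCP against 111 to 165 CPM in CLP and 39.2 and 40.7 CPM in ILC1/3P. The remaining genes of the 15 below were Ube2l6, Scimp, Pydc4, Parp14, Ly6a, Ly86, Runx2os1, Unk, Kctd12, D5Ertd605e and Hopx. Calls were lost for Ly6a, Hopx, Parp14, Ly86, D5Ertd605e and Unk without ILCP replicate 3, for Parp14, D5Ertd605e and Unk without ILCP replicate 1, and for Parp14, Ly86, D5Ertd605e and Unk without CLP replicate 3. Unk also lost its call without CLP replicate 1 or 2 or either ILC1/3P library (highest adjusted p = 0.148).

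Interferon response genes were lower in part. Of 26 tested, none was called higher and 7 lower, and 5 were members below (Ifi203, Rtp4, Bst2, Xaf1 and Irgm1). Their median difference was -1.21 against 0.17 over all genes. With libraries scaled by total counts only, 1 was called higher and 5 lower. Rtp4, a chaperone of receptors that interferon induces, was at 118, 225 and 194 CPM in CLP, 43.7, 39.1 and 31.0 CPM in ILCP, and 308 and 408 CPM in ILC1/3P (-2.74 ± 0.28, adjusted p = 0.000275). Ifi203, a nucleic acid sensor family gene, was at 166 to 185 CPM in CLP, 26.5, 28.7 and 25.2 CPM in ILCP, and 86.0 and 90.1 CPM in ILC1/3P (-2.22 ± 0.23, adjusted p = 0.000259).

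Bst2, which tethers virus particles at the cell surface, was at 44.8, 21.2 and 22.2 CPM in CLP, 3.98, 5.11 and 6.76 CPM in ILCP, and 54.1 and 130.2 CPM in ILC1/3P (-3.30 ± 0.48, adjusted p = 0.00229). Ube2l6 is the enzyme that passes the ubiquitin-like protein ISG15 to its targets and was not in the list. It was at 24.1, 71.6 and 32.6 CPM in CLP, 0, 0 and 0.141 CPM in ILCP, and 46.2 and 13.95 CPM in ILC1/3P. With 1 count in ILCP, its ratio of CLP to ILCP was 836 with a 95% counting interval of 149.7 to 33080. Other interferon genes did not follow. Igtp was at 119.8 to 156 CPM in ILCP, above CLP (39.4 to 52.1 CPM) and below ILC1/3P (355 and 665.5 CPM), and Ifit2 was at 8.53 to 12.1 CPM in ILCP within the range of the others. Irgm1 lost its call without 7 of the 8 libraries (highest adjusted p = 0.147; the exception is ILC1/3P replicate 2).

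**Figure D4:**
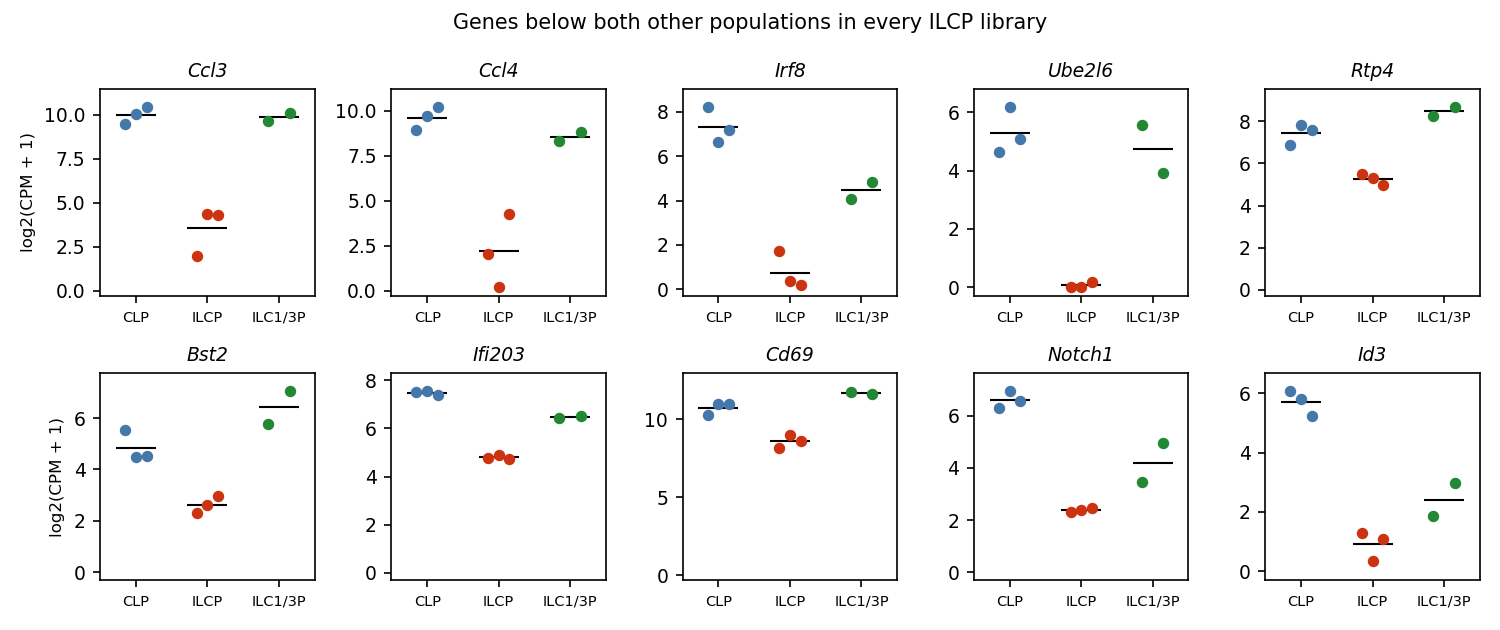
Level of 10 genes in each library as log2(CPM + 1), 1 point per library and a line at each group mean. For each gene the 3 ILCP points lie below the 3 CLP and the 2 ILC1/3P points.

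Promoters of 3 members below are shown because they hold the letters of the interferon-stimulated response element, through which interferon acts on its target genes. The letters searched were GAAANNGAAA on both strands, where overlapping matches were counted, in the 250 bases before each RefSeq start (GRCm38.p6). It was found in 7 of the 101 members below that matched a promoter (6.93%), against 3.05% of 27025 promoters, 2.68% of those of tested genes and 2.54% of the 236 members above that matched. The 7 were Ddx60, Bst2, Cybb, Ctss, Mndal, Irgm1 and Gbp7. The matches are in capitals, 5′ to 3′ on the strand of the gene, for Bst2 (chr8:71537473-71537722, minus strand), Irgm1 (chr11:48871421-48871670, minus strand) and Ddx60 (chr8:61927837-61928086, plus strand).
Bst2: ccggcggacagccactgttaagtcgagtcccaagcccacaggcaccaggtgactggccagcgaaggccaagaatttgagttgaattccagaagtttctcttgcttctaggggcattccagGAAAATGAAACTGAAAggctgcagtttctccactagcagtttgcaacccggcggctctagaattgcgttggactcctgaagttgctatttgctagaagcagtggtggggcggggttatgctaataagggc
Irgm1: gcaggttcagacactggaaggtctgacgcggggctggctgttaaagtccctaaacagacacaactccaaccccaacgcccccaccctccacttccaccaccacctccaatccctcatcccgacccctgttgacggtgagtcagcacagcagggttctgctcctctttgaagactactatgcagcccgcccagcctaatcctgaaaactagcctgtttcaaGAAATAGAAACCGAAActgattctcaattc
Ddx60: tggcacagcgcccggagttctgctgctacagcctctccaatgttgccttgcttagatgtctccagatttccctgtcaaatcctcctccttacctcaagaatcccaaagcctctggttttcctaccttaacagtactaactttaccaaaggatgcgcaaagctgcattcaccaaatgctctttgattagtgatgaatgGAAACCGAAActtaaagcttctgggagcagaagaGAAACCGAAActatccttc
Bst2 and Irgm1 each hold a pair of overlapping matches and Ddx60 a pair of separate ones. Ddx60, a helicase of antiviral responses, was chosen after its values were seen. It was at 1.25, 9.01 and 4.595 CPM in CLP, 0 CPM in ILCP, and 2.30 and 7.56 CPM in ILC1/3P, and its call (adjusted p = 0.0383) was lost without 6 of the 8 libraries (highest adjusted p = 0.0998; the exceptions are CLP replicate 1 and ILC1/3P replicate 1). A GATA motif (AGATAA) was in 9.75% of promoters of members above and 7.92% of those of members below. All promoters held it in 10.2% and those of tested genes in 6.11%. The ROR half-site (AGGTCA), also searched, was in 11.4% of members above and 11.9% of members below. Its share was 13.8% of all promoters and 10.5% of those of tested genes. A match is a description of the letters, not a binding site.

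Replication genes gave members below. Of 34 cell cycle genes, none was called higher and 10 lower, and 2 were members below, Mcm5 and Mcm2, subunits of the replicative helicase. Over all tested genes 2.73% were called lower and 1.05% were members below. The median difference of the list was -0.76, with medians of -0.20 against CLP and -1.07 against ILC1/3P. Mcm5 was at 137, 78.55 and 76.9 CPM in CLP, 43.8, 54.6 and 40.3 CPM in ILCP, and 128 and 144 CPM in ILC1/3P (-1.32 ± 0.28, adjusted p = 0.0171). Its call was lost without ILCP replicate 1 or 3 (highest adjusted p = 0.0892), and that of Mcm2 without 6 of the 8 libraries (highest adjusted p = 0.1185; the exceptions are CLP replicate 3 and ILC1/3P replicate 2). Under library totals only both calls were lost, and 2 cell cycle genes were called higher and 4 lower. Cdk1 was at 26.1 to 48.4 CPM in ILCP, 31.3 to 39.9 CPM in CLP, and 962 and 768 CPM in ILC1/3P. Ccnb2, a mitotic cyclin that was not called, was at 620.3, 796 and 739 CPM in ILCP, 405 to 532 CPM in CLP, and 645 and 418 CPM in ILC1/3P. Uhrf1, which helps to copy DNA methylation and was chosen after its values were seen, was at 57.95 to 159 CPM in CLP, 28.9, 39.9 and 25.3 CPM in ILCP, and 125 and 147 CPM in ILC1/3P. Its call (adjusted p = 0.00737) was lost without ILCP replicate 3 (adjusted p = 0.0537).

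**Figure D5:**
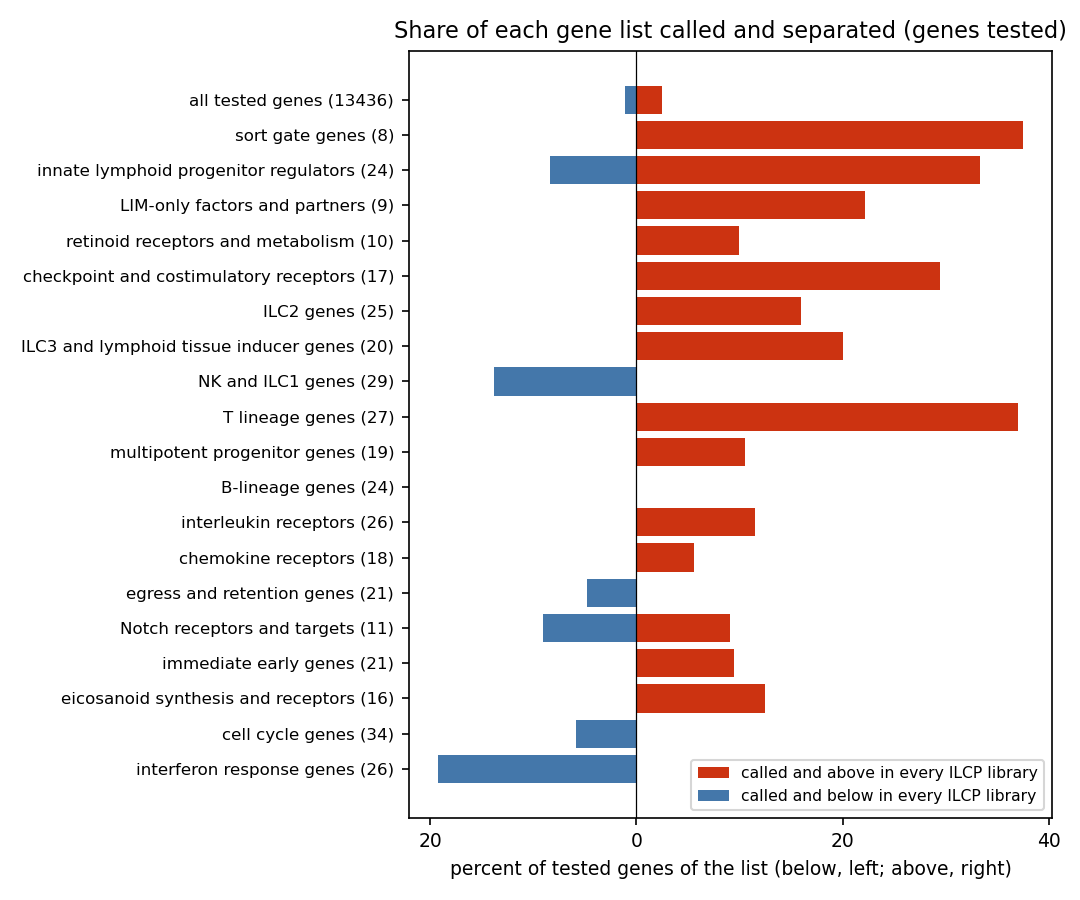
Share of the tested genes of each list of programs (lists of other cell types are not drawn) that were called and above (red, right) or called and below (blue, left) in every ILCP library, in percent, with the number tested in brackets. All tested genes have 2.48% above and 1.05% below; the red bar is 10 of 27 genes for the T lineage and the blue bar 5 of 26 for the interferon response.

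Other lists held few members. There were 2 above in LIM-only factors and partners (Lmo4 and Ssbp3; 9 tested), 1 in retinoid receptors and metabolism (Rxrg; 10), 2 in multipotent progenitor genes (Kit and Angpt1; 19), 3 in interleukin receptors (Il23r, Il17rb and Il2ra; 26), 1 in chemokine receptors (Ccr6; 18), 2 in immediate early genes (Dusp1 and Ier2; 21) and 2 in eicosanoid genes (Alox5 and Ptges; 16). Dusp1, a phosphatase of MAP kinases, was at 186 to 196 CPM in CLP, 1079, 661 and 1077 CPM in ILCP, and 436 and 278 CPM in ILC1/3P (1.85 ± 0.23, adjusted p = 0.000749). Egress and retention genes held 1 member below (Cd69; 21) and dendritic markers 2 (Irf8 and Bst2; 11), while endothelial and stromal markers held none. B-lineage genes gave no member, and 1 of 24 was called higher and 7 lower. The call of Ssbp3 was lost without ILCP replicate 1 or 3 and that of Ptges without 5 libraries, CLP replicate 2 or 3 or any ILCP library (highest adjusted p = 0.126).

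Markers of other cells moved with ILCP in some lists. The 13 mast cell and basophil markers summed to 593 to 776 CPM in ILCP, 49.3 to 88.4 CPM in CLP and 217.5 to 307 CPM in ILC1/3P. Cpa3, a protease gene, held most of it at 481, 627 and 499 CPM, while 7 of the 13 had no ILCP counts, Mcpt8, Mcpt4, Ms4a2 and Fcer1a among them. Kit was the other member above. Platelet markers (with Gp1bb a member above) summed to 153 to 189.8 CPM in ILCP, 77.8 to 132 CPM in CLP and 54.9 to 144 CPM in ILC1/3P, with Ppbp and Vwf at 0 in ILCP. Hepatocyte markers (with Ahsg a member above) summed to 49.2 to 115 CPM in ILCP, 80.1 to 96.7 CPM in CLP and 30.7 to 48.03 CPM in ILC1/3P. Of these 12 markers, 5 had no ILCP counts, Alb and Ttr among them. Afp was at 23.0, 15.9 and 20.3 CPM in ILCP, 3.29 to 17.8 CPM in CLP, and 17.6 and 9.22 CPM in ILC1/3P. Trf was at 11.3 to 49.1 CPM in ILCP, 48.4 to 83.8 CPM in CLP, and 11.4 and 6.86 CPM in ILC1/3P. The call of Ahsg was lost without 7 of the 8 libraries (highest adjusted p = 0.223; the exception is CLP replicate 2). Erythroid markers were lowest in ILCP (166 to 279.6 CPM) against 469.7 to 657 CPM in CLP and 2449 to 3071 CPM in ILC1/3P, where Car2 made most of the sum. Myeloid markers summed to 14.0 to 22.8 CPM in ILCP and at least 51.5 CPM elsewhere. The part of such cells in the differences above was not tested.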

How the data were processed

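Per the labels' protocols, RNA of the sorted cells was reverse transcribed without purification (SMARTer Ultra Low kit), amplified by PCR and sequenced on a NovaSeq6000. The deposited table holds whole-number counts per gene, and FPKM values that the authors computed. The submitters' processing notes name the build, mm10. Not given in the sources used here are the aligner, the counting program, the annotation and the use of strand. Of 34745 genes, filterByExpr kept 13436. edgeR 4.0.16 (R 4.3.3) with TMM scaling fitted a robust quasi-likelihood model to all 8 libraries, 1 mean per group. Exon overlaps came from GENCODE M21, where 34344 identifiers matched. Counting error is all that intervals and floors cover, as the protocols name no molecular identifiers. The fit was tested on simulated counts.

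Named genes are the 3 markers and the gate genes, the 15 members per direction farthest from the nearer population (at least 10 CPM, no predicted genes, pseudogenes or receptor segments), up to 4 called genes per list by p, the 2 most abundant genes of each other-cell list, and separated regulators. Members, lists and alternatives were chosen with earlier results of these data known. Alternatives were other scalings, filters, DESeq2 1.42.0, a replicate block, a stricter call, and leaving out each library.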

Additional observations from a re-analysis of the deposited data

How the results depend on the processing

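Counts of calls depended on the settings. Genes called higher in ILCP numbered 686, and 1165 with library totals only, 1036 with DESeq2, 1078 without a filter and 441 with a replicate block. Genes called lower numbered 367, and 201, 859, 578 and 342 under the same settings. Genes below in every ILCP library numbered 399, and 264 with library totals only. Both conditions held for 333 genes above, and for 509 with library totals only and 210 without genes whose exons overlap another gene. Below they held for 141, and for 267 with DESeq2 and 96 with library totals only. The stricter call, which adjusts the larger of the 2 p-values over all genes, left 3 higher and 9 lower genes. DESeq2 gave no adjusted p for 548 genes.

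Leaving out 1 library gave 266 to 918 genes higher, 132 to 389 lower, 894 to 1168 separated above and 487 to 684 below, with fewer libraries to separate. Both conditions held for 167 to 381 genes above and 80 to 205 below. The fewest called and separated came without ILCP replicate 3 (167 above, 86 below) and ILCP replicate 1 (173 above, 80 below). Below, 91 were left without CLP replicate 2 and 89 without CLP replicate 3.

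The replicate numbers gave no clear pairing of the libraries. Correlations of deviations between same-numbered libraries ran from -0.0332 to 0.0867 in 7 pairs, 0 of them over 0.1. The highest of all, 0.0867 and 0.0566, were between CLP and ILCP libraries of the same number (replicates 1 and 2). Only 1 of 8 libraries correlated best with its own number within each other group. With the replicate block, 239 genes above and 113 below met both conditions.

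Of 138 called genes among those named, 93 kept their call under every setting except the stricter one, and 9 under all. The sign changed under the stricter call, which reports the smaller of the 2 differences, for Ccr8 (-0.30), Cxcr6 (-1.81), Tnfrsf9 (-0.72), Cdk1 (0.17), Klri2 (1.90), Stab2 (-0.44), Id2 (-1.41), Ccr2 (-0.59), Birc5 (0.69), Ikzf2 (-0.17), Ccr9 (-0.27), Cd79b (0.25), Alox5ap (0.47), Mef2c (1.09), Il18r1 (-0.23) and Itgae (-0.37). None of these 16 is separated. With the other groups averaged as CPM, the differences of 55 named genes were rated the same and 88 moved in size. Arg1, for example, went from 5.10 to 1.47 and Klri2 from -2.18 to -5.27. The sign changed for 2, Cxcr6 (-0.81) and Id2 (-0.43). Depth limits the genes at a few CPM, since 3 counts over 2 or 3 libraries is the floor of every bound.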
